A study of Mus musculus with 31 samples.

Results

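The genes described here are 59 protein-coding genes of mouse macrophages that were low after lipopolysaccharide (LPS), higher when the BRD9 inhibitor iBRD9 had been given before LPS, and not higher when dexamethasone (Dex) had been given before LPS. They were chosen on measured values in experiment 1, in CPM, the read count of a gene scaled to a common library total, with TMM factors that adjust each total for differences in composition. A gene was taken when its vehicle mean was 5 CPM or more and when 3 ratios of group means, each mean with 0.5 CPM added, passed a limit: LPS over vehicle at most 0.33, iBRD9 + LPS over LPS at least 1.7, and Dex + LPS over LPS below 1.2. Of 35275 gene identifiers, 9094 reached the vehicle limit, 562 of those also passed the LPS limit, 197 of those also passed the iBRD9 limit and 60 passed all limits. Symbols beginning with Mcm, Cdc, Ccn, Kif, Klf, Tlr, Ccr or Cxcr were left out, which removed Kif21b and left 59 genes. The 562 genes that LPS lowered thus divide into these 59, 1 left out by name, 137 that also had a ratio of 1.2 or more with Dex, and 365 that did not reach the iBRD9 limit.

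LPS is an outer membrane component of Gram-negative bacteria that is sensed by TLR4 on macrophages; it induces inflammatory genes and, in the same hours, lowers many genes of the resting macrophage. BRD9 is a bromodomain protein of the non-canonical BAF (ncBAF) chromatin remodelling complex, and its bromodomain binds acetylated lysines. An inhibitor such as iBRD9 occupies the bromodomain and leaves the protein in place, whereas the degrader dBRD9 leads to loss of the whole protein. Dex is a synthetic glucocorticoid that activates the glucocorticoid receptor, which represses many inflammatory genes.

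The macrophages were grown from bone marrow of male C57BL/6J mice aged 6 to 12 weeks, with medium conditioned by L-929 cells, and were then kept in serum-free macrophage medium. In experiment 1 the groups were Dex + iBRD9 + LPS, iBRD9 + LPS, Dex + dBRD9 + LPS, dBRD9 + LPS, Dex + LPS, LPS and vehicle, with 3 libraries each. In experiment 2 they were Dex + dBRD9 + IFNγ + LPS, dBRD9 + IFNγ + LPS, Dex + IFNγ + LPS, IFNγ + LPS and vehicle, with 2 libraries each. Per the labels, Dex was used at 1 µM, iBRD9 at 3 or 10 µM and dBRD9 at 250 nM overnight, and LPS followed at 100 ng/ml for 3 h; which of its doses iBRD9 had in these libraries, and the dose and time of IFNγ, is not stated in the sources used here. No genetic change is labelled, all groups are of 1 strain, and every group except vehicle received LPS. The labels do not say whether replicate libraries came from separate animals or cultures, so p-values below measure the spread between libraries, which may be technical.

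Libraries of experiment 1 held 19253941 to 29912533 counts and those of experiment 2 held 14472828 to 17930566. The 8 macrophage markers all had reads in every group, with summed levels of 11311 CPM or more in experiment 1 and 11250.3 CPM or more in experiment 2. A pair of libraries of experiment 1 stood apart from the other libraries of their group in a trend with transcript length, the first Dex + LPS library (Spearman's rank correlation across 7593 genes of -0.68) and the first Dex + dBRD9 + LPS library (-0.52). In experiment 2, with 2 libraries a group, the libraries of a group moved apart in the same trend (rank correlations across 7390 genes of -0.64 and 0.64 for vehicle, 0.57 and -0.57 for Dex + IFNγ + LPS and -0.29 and 0.29 for IFNγ + LPS); 2 libraries do not show which one is the unlike one. Summed levels of 8 neutrophil markers were 0.989 to 2.37 CPM with iBRD9 + LPS, against 16.8 to 24.2 CPM with LPS and 10.8 to 13.5 CPM with vehicle, and Ly6g and Mpo had no reads with iBRD9 + LPS or with LPS. Summed levels of 6 dendritic cell markers were 1.94 to 3.04 CPM with iBRD9 + LPS, against 9.82 to 10.2 CPM with LPS and 0.857 to 1.16 CPM with vehicle. Summed levels of 6 stromal markers were 0.86 to 1.93 CPM with iBRD9 + LPS, against 29.3 to 33.1 CPM with LPS and 0.387 to 0.545 CPM with vehicle, and Pdgfrb alone made up nearly all of these sums. With iBRD9 + LPS the other 5 stromal markers had no reads, and with LPS Col1a2 and Col3a1 had none. These marker sums were lower with iBRD9 + LPS than with LPS, where the 59 genes were higher, and their part in that rise was not tested. In bulk RNA, fewer cells of a type and less RNA per cell cannot be told apart.

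The rise with iBRD9 was partial for most of the 59 genes. As a description of the values that chose them, the ratio of LPS over vehicle had a median of 0.24 (range 0.0427 to 0.326) and the ratio of iBRD9 + LPS over LPS had a median of 2.12 (1.71 to 6.95). The level with iBRD9 + LPS was a median of 0.524 of vehicle (0.109 to 1.05), so that a median of 37.3% of the distance between LPS and vehicle was regained. In 34 of the 59 genes the iBRD9 + LPS mean was at or above 0.5 of vehicle, in 7 it was below 0.25, and in 57, all but Rhobtb1 and Sema4b, every iBRD9 + LPS library lay below every vehicle library, where 38.5% of all genes tested did and 40.3% lay above; the rule used both groups. The genes closest to vehicle were Rhobtb1 (1.05), Sema4b (1.02) and Fam102a (0.872), and the farthest below it were Rasa3 (0.109), Rhov (0.113) and Arl4c (0.176).

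All 59 genes had LPS libraries below all vehicle libraries, where 42.7% of the 12662 genes tested did, and all 59 had iBRD9 + LPS libraries above all LPS libraries, where 37.1% did and 34.6% lay below; the rule fixes both counts. Genes just inside a limit differ little from genes just outside it. Ccp110 (0.326) and Zbtb42 (0.324) lay just inside the LPS limit, and Mettl13 (0.333) and Kank2 (0.334) just outside. Cnnm2 (1.71) and Mfsd4b4 (1.72) lay just inside the iBRD9 limit, and Zfp704 (1.68) and Wdr19 (1.66) just outside. The same LPS libraries stand on top of the first ratio and at the bottom of the others, so a gene whose LPS libraries happened to read low is favoured by the rule, and its ratio with iBRD9 may be smaller on new LPS libraries. Each LPS library in turn was kept out of the choice and used only to read the iBRD9 ratio. The 52, 61 and 60 genes then chosen had median ratios of 2.19, 2.06 and 2.26 against the library kept out, and 49, 51 and 54 of them were at 1.7 or more. The iBRD9 libraries were the same throughout. A low reading shared by all LPS libraries would stay in these ratios, so they cannot stand in for new LPS libraries. With libraries scaled by totals alone, which moves the median of all genes by -0.50 on the log2 scale for LPS over vehicle and by 0.13 for iBRD9 + LPS over LPS, the rule would choose 119 genes, among them 48 of the 59.

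**Figure D1:**
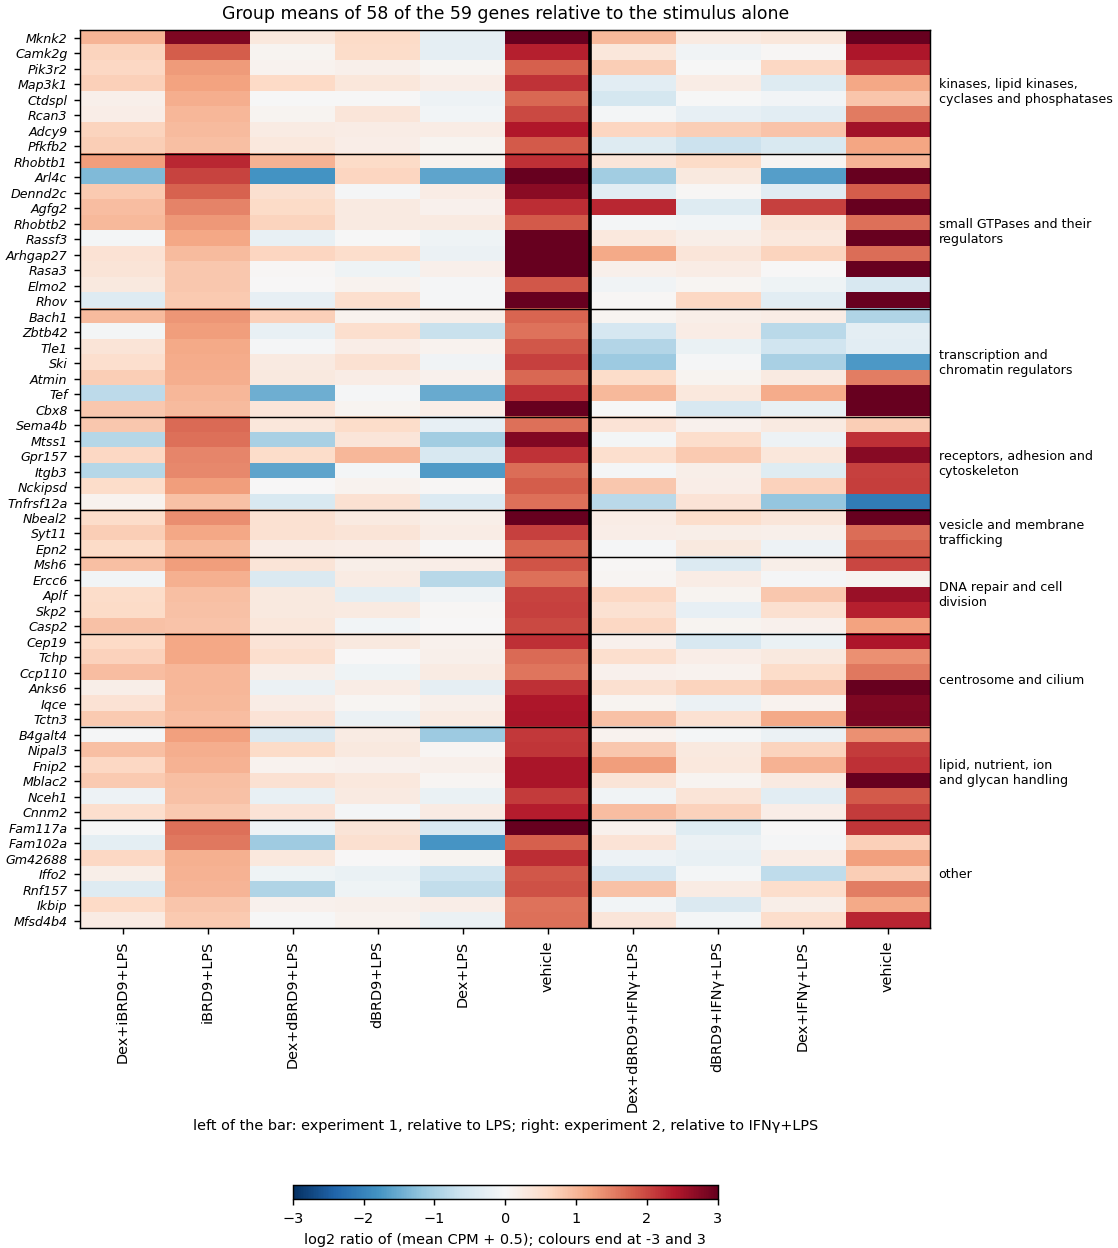
Heat map of 58 of the 59 genes (rows, grouped by role) in each group (columns), as the log2 ratio of the group mean CPM plus 0.5 to that of LPS in experiment 1 or of IFNγ + LPS in experiment 2; colours end at -3 and 3. The iBRD9 + LPS column is raised throughout, the Dex + LPS and dBRD9 + LPS columns are near 0 for most genes, and the vehicle column is the highest for most genes.

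The 59 genes were sorted by textbook role into 8 kinases, cyclases and phosphatases, 10 small GTPases and their regulators, 8 regulators of transcription and chromatin, 6 receptors, adhesion and cytoskeletal genes, 3 genes of vesicle trafficking, 5 of DNA repair and cell division, 6 of the centrosome and cilium, 6 of lipid, nutrient, ion and glycan handling, and 7 others. The median ratio of iBRD9 + LPS over LPS lay between 1.86 (DNA repair and cell division) and 2.73 (receptors, adhesion and cytoskeleton) across these roles. The small GTPases and their regulators had the lowest median ratio of LPS over vehicle, 0.138.

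Among the signalling enzymes, Mknk2 encodes MNK2, a kinase activated by MAP kinases that phosphorylates the cap-binding factor eIF4E. Mknk2 (ENSMUSG00000020190; mm10 chromosome 10, 80665327 to 80678112, minus strand) had 135, 113 and 146 CPM with iBRD9 + LPS, against 19, 18.6 and 17.9 CPM with LPS and 204, 199.9 and 192 CPM with vehicle. It had 26, 28.5 and 29.5 CPM with dBRD9 + LPS, and 16.5, 14.6 and 14.9 CPM with Dex + LPS. The iBRD9 libraries stood well apart from every other LPS group, and its ratio of 6.95 over LPS was the highest of the 59 genes. With Dex given as well as iBRD9 most of that rise was missing, at 36.8, 37.4 and 40.7 CPM.

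Camk2g, the gamma chain of calcium/calmodulin-dependent protein kinase II, had 28.5, 28.8 and 29.9 CPM with iBRD9 + LPS, against 7.08, 8.38 and 8.07 CPM with LPS and 40.6, 42.1 and 42.7 CPM with vehicle. Map3k1, a kinase upstream of the JNK pathway, had 36.3, 27.9 and 37.1 CPM with iBRD9 + LPS, against 12.7, 16.2 and 14 CPM with LPS and 65.7, 68.4 and 64.4 CPM with vehicle. Pik3r2, a regulatory subunit of PI3-kinase, had 26.2, 23.8 and 26.1 CPM with iBRD9 + LPS, against 10.8, 9.66 and 9.82 CPM with LPS and 36.1, 36.6 and 35.4 CPM with vehicle. In each of the 3 genes the iBRD9 + LPS libraries lay between the LPS and the vehicle libraries without touching either. The other enzymes of the group were Adcy9, an adenylyl cyclase; Pfkfb2, which sets the level of an activator of glycolysis; Rcan3, a regulator of calcineurin; and the phosphatase Ctdspl.

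Of the small GTPase genes, Rhobtb1, an atypical small GTPase, had 6.90, 6.04 and 7.79 CPM with iBRD9 + LPS, against 0.959, 1.09 and 1.06 CPM with LPS and 7.71, 6.17 and 5.85 CPM with vehicle. Its iBRD9 + LPS and vehicle libraries overlapped. Arl4c, an ARF-like GTPase of membrane traffic, had 16.8, 13.7 and 16.6 CPM with iBRD9 + LPS, against 3.10, 3.85 and 3.34 CPM with LPS and 97.5, 89.1 and 88.1 CPM with vehicle. Arl4c was lower still with Dex + LPS, at 1.04, 1.04 and 0.362 CPM. Rasa3, which switches off Ras and Rap, had 16.1, 14.1 and 15.7 CPM with iBRD9 + LPS, against 7.72, 8.11 and 9.82 CPM with LPS and 147, 149 and 137 CPM with vehicle. Arl4c was thus several times above LPS and Rasa3 less so, and both stayed far below vehicle. Elmo2, Arhgap27, Dennd2c and Agfg2, regulators of small GTPases, belong to the same group.

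Among the regulators of transcription, Bach1, a haem-sensing repressor of the haem oxygenase gene, had 93.5, 89.9 and 93.9 CPM with iBRD9 + LPS, against 36.5, 38.3 and 35.9 CPM with LPS and 129, 129 and 119 CPM with vehicle. Tef, a PAR bZIP factor that carries circadian output, had 23.7, 20.5 and 24.5 CPM with iBRD9 + LPS, against 12.1, 11.5 and 9.82 CPM with LPS and 51.8, 54.0 and 50.0 CPM with vehicle. Tef lay below LPS with Dex + LPS, at 3.25, 3.00 and 4.57 CPM, with no overlap. Ski, an antagonist of SMAD proteins, had 72.5, 65.1 and 72.4 CPM with iBRD9 + LPS, against 32.3, 34.2 and 29.0 CPM with LPS and 138, 136 and 128 CPM with vehicle. For Bach1 and Ski, as for Tef, the iBRD9 + LPS libraries lay apart from both of the other groups. The corepressor Tle1, the Polycomb protein Cbx8, Atmin and Zbtb42 belong to the same group.

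Among receptors and adhesion genes, Sema4b, a transmembrane semaphorin, had 10.1, 7.66 and 9.29 CPM with iBRD9 + LPS, against 2.10, 2.87 and 2.34 CPM with LPS and 9.31, 9.21 and 7.86 CPM with vehicle. Its iBRD9 + LPS libraries spanned those of vehicle. Itgb3, the integrin β3 chain, had 17.2, 15.1 and 15.7 CPM with iBRD9 + LPS, against 5.07, 6.57 and 5.10 CPM with LPS and 18.5, 18.7 and 19.3 CPM with vehicle. Mtss1, a membrane-bending actin regulator, had 79.4, 87.1 and 89.3 CPM with iBRD9 + LPS, against 27.3, 27.6 and 25.9 CPM with LPS and 185, 189.6 and 183 CPM with vehicle. Itgb3 came close to vehicle without reaching it, and Mtss1 stayed far below. Tnfrsf12a, the receptor for the cytokine TWEAK, had 6.90, 6.45 and 7.83 CPM with iBRD9 + LPS, against 3.70, 3.70 and 3.45 CPM with LPS and 12.4, 11.4 and 13.3 CPM with vehicle.

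Genes of the remaining roles had the same order of groups. Ercc6, the transcription-coupled repair protein CSB, had 53.9, 46.4 and 49.4 CPM with iBRD9 + LPS, against 21.7, 26.2 and 22.8 CPM with LPS and 73.6, 76.9 and 75.2 CPM with vehicle. Nceh1, a neutral cholesterol ester hydrolase of macrophages, had 162, 171 and 166 CPM with iBRD9 + LPS, against 92.9, 92.8 and 85.3 CPM with LPS and 394, 401 and 379 CPM with vehicle. Fnip2, a partner of folliculin in nutrient sensing, had 129, 128 and 129 CPM with iBRD9 + LPS, against 62.8, 64.2 and 60.8 CPM with LPS and 341, 353 and 340.1 CPM with vehicle. In these 3 genes the iBRD9 + LPS libraries lay above LPS and below vehicle with no overlap. Fam102a, listed among the others, had 29.7, 27.0 and 29.7 CPM with iBRD9 + LPS, against 8.22, 10.8 and 8.71 CPM with LPS and 31.4, 34.4 and 33.6 CPM with vehicle.

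**Figure D2:**
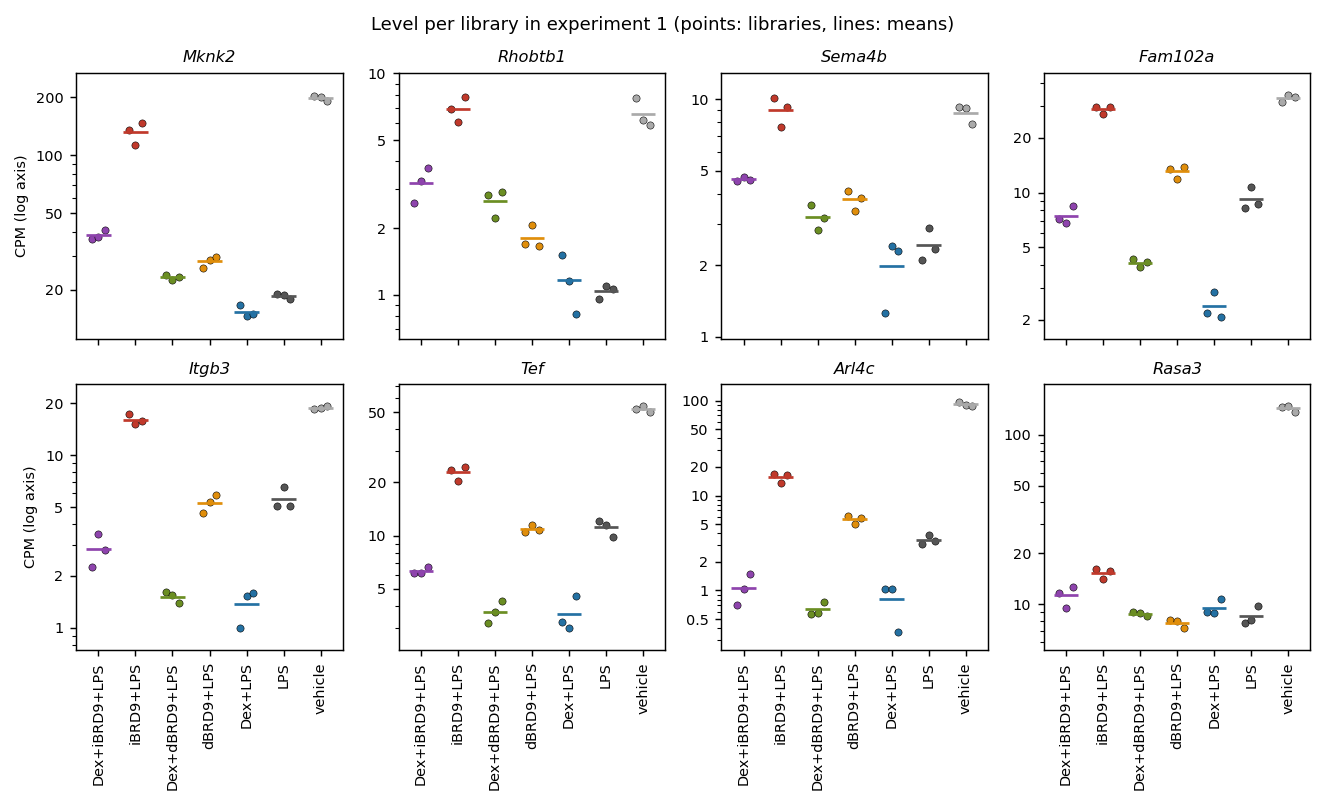
Levels of 8 of the genes in experiment 1 (log axis, CPM), with a point for each of the 3 libraries of a group and a line at the group mean. In Mknk2, Itgb3, Fam102a, Tef and Arl4c the iBRD9 + LPS libraries are above those of the other groups that received LPS; in Rhobtb1 and Sema4b they overlap vehicle, and in Rasa3 and Arl4c they stay far below it.

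Promoters are shown for 4 genes on which the results below turn and in whose promoters a searched motif was found. Windows of 300 bases, 250 before and 50 after a transcript start, came from RefSeq on GRCm38.p6, and 49 of the 59 genes matched, with 62 windows. Mknk2 is read from the minus strand at chr10:80676244-80676543, and capitals mark TATAAA at position -30 from the start. Tef has a pair of starts on the plus strand, at chr15:81802423-81802722 and chr15:81811164-81811463, and capitals mark the palindrome CACGTG (an E-box) at -127 and -138. Nceh1 is on the plus strand at chr3:27182754-27183053, and capitals mark CACGTG at -26 and, at -72, the reverse complement of GAGGAAG, a core bound by PU.1. Arl4c is on the minus strand at chr1:88702142-88702441, and capitals mark GAGGAAG at -183.
Mknk2: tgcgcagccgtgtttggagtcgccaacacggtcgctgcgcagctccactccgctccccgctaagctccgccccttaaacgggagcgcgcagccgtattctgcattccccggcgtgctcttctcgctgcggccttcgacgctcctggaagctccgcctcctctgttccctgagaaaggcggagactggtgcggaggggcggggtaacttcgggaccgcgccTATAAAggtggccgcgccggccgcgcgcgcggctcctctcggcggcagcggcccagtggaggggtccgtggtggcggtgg
Tef, first start: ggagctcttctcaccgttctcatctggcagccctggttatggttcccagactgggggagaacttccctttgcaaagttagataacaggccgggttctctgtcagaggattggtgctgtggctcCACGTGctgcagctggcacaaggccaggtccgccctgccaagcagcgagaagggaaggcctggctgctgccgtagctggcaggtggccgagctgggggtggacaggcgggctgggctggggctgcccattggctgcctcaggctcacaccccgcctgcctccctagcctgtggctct
Tef, second start: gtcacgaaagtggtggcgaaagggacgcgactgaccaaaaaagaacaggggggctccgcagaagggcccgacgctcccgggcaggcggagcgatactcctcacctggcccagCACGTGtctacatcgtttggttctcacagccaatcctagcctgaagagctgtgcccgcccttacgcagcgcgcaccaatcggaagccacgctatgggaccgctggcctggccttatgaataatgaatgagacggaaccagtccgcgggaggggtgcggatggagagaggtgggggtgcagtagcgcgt
Nceh1: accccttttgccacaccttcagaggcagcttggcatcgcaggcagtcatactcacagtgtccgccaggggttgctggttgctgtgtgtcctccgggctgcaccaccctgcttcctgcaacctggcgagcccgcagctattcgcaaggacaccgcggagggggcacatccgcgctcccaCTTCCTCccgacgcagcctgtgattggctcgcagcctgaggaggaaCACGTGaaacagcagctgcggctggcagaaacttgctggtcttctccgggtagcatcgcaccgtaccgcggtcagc
Arl4c: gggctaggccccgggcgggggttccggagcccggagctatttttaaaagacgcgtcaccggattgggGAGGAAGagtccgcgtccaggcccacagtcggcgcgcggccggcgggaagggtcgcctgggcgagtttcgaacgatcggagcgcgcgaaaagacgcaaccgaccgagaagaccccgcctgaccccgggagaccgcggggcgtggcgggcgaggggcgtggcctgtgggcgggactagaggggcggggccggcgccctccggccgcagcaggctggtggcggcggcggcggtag

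Across the 62 windows, searched on both strands, CACGTG was in 9 (14.5%), against 12.4% of windows of the other genes that LPS lowered and 9.93% of windows of all genes tested. GAGGAAG was in 11 windows (17.7%), against 16.6% and 13.8%. TATAAA was in 5 windows (8.06%), against 7.30% and 7.10%. TGACGTC, a CREB element, was in 2 windows (3.23%), against 3.28% and 5.41%. GTAAACA (forkhead) and TGACTCA (AP-1) were in 0 of the 62 windows. Forkhead matches were in 2.92% of windows of the other genes lowered by LPS and 2.59% of windows of all genes tested, and AP-1 matches in 4.93% and 3.94%. A match is only a run of letters. The 59 genes had a median of 5492 exon bases and 12 exons, against 5231 and 9 for the other genes lowered by LPS and 4265 and 9 for all genes tested, and their median GC content of 52.7% lay above the 51.2% and 49.5% of those sets. Exons of 17 of the 59 genes overlap another gene, 14 of them on the opposite strand, and the strand setting of the counting is not given in the sources used here; for Gm42688, which overlaps Ccdc142 and Mrpl53, and for Mfsd4b4, which has close paralogs, the counts are uncertain.

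Dex alone did not raise these genes as a set, as the rule required, but a share of them were lower with it. The ratio of Dex + LPS over LPS had a median of 1.03 (0.294 to 1.2), with 32 genes above 1, 27 below and 13 under 0.8. Libraries of Dex + LPS all lay below those of LPS in 15 genes and above in 1, where 28.1% and 27.3% of all genes tested did so, so the 25.4% of these genes that were lower lay near the background. Without the first Dex + LPS library, a setting chosen after seeing the data, 17 of the same 59 genes lay below LPS and 12 above, where 36.4% and 35.6% of all genes tested did, and 14 had a ratio under 0.8. Chosen without that library, 53 genes would pass the rule, 49 of them among the 59. In Fnip2, Bach1, Map3k1, Nbeal2 and Adcy9 that library was the lowest with Dex + LPS, and the others lay above every LPS library. Itgb3 had 0.996, 1.53 and 1.58 CPM with Dex + LPS, against 5.07, 6.57 and 5.10 CPM with LPS. Fam102a had 2.17, 2.84 and 2.08 CPM with Dex + LPS, against 8.22, 10.8 and 8.71 CPM with LPS. Mtss1 had 11.3, 13.5 and 13.6 CPM with Dex + LPS, against 27.3, 27.6 and 25.9 CPM with LPS. In these 3 genes, as in Arl4c and Tef above, the level with Dex + LPS was below that with LPS, with no overlap.

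The degrader gave much smaller ratios than the inhibitor in experiment 1. The ratio of dBRD9 + LPS over LPS had a median of 1.16 (0.813 to 2.01), with 46 of 59 genes above 1, and a median of 4.53% of the distance to vehicle was regained. Libraries of dBRD9 + LPS all lay above those of LPS in 26 genes and below in 0, where 20.2% and 18.2% of all genes tested did so. Gpr157, an orphan receptor, had the highest ratio, with 6.25, 7.05 and 6.15 CPM with dBRD9 + LPS, against 2.97, 2.98 and 2.97 CPM with LPS. It was the only member at 1.7 or more with the degrader. These LPS libraries are the ones the rule used, and a gene whose LPS libraries read low gains in this ratio too, so no test was made. Among the 137 genes that had also passed with Dex, 66 lay above LPS and 1 below in the same comparison. Set side by side, the ratio of iBRD9 + LPS over dBRD9 + LPS had a median of 1.91 (1.22 to 4.63), and the iBRD9 libraries were all higher in 58 of 59 genes, where 32.7% of all genes tested were; the rule chose high iBRD9 libraries, and the doses of the compounds differ.

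With Dex and iBRD9 given together, most of the genes stood above the level with Dex and below the level with iBRD9. The ratio of Dex + iBRD9 + LPS over Dex + LPS had a median of 1.46 (0.792 to 2.78) and was above 1 in 58 of 59 genes, and the libraries were all higher in 49 and all lower in 0, where 20.1% and 19.9% of all genes tested were. Without the first Dex + LPS library the median was 1.43, and 51 were higher and 0 lower, where 30.4% and 27.8% of all genes tested were. With all libraries, 99 of the 137 genes that passed with Dex as well were all higher and 4 all lower. The rise over Dex + LPS is thus shared with those genes. The ratio of Dex + iBRD9 + LPS over iBRD9 + LPS had a median of 0.677, and the libraries were all lower in 50 genes and all higher in 0, where 30.7% of all genes tested were in each direction. Among the 137 genes that passed with Dex as well, 37 were lower and 48 higher in that comparison. Both ratios contain a group that the rule used, so they are described and not tested. The iBRD9 + LPS mean was the highest of the 6 groups that received LPS in 58 genes. The rule itself set that mean above LPS and Dex + LPS, and the share over all genes tested was not counted. The exception was Casp2, a caspase of the DNA damage response, with 12.2, 13.2 and 14 CPM with Dex + iBRD9 + LPS and 13.3, 10.4 and 14.7 CPM with iBRD9 + LPS, which overlap. Against LPS itself, the Dex + iBRD9 + LPS libraries lay above in 39 genes and below in 5, where 37.6% and 34.9% of all genes tested did. The level with Dex + iBRD9 + LPS was a median of 0.333 of vehicle, and 12.9% of the distance was regained.

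The difference between the inhibitor and the degrader was also measured in libraries that the rule did not use, those that had received Dex as well. Of the 59 genes, 23 were higher and 0 lower with Dex + iBRD9 + LPS than with Dex + dBRD9 + LPS (edgeR's quasi-likelihood test, adjusted p under 0.05 over 12662 genes), where 6.69% of all genes tested were higher and 8.93% lower. The log2 fold change was positive in 57 of 59, with a median of 0.36, against a median of 0.0021 over all genes tested. Among the 137 genes that passed with Dex as well, 50 were higher and 2 lower (median 0.28), and among the 365 genes that did not reach the iBRD9 limit 20 were higher and 57 lower. Without the first Dex + dBRD9 + LPS library 21 of the 23 genes were still called, and Ccp110 and Ercc6 were not. Over all 6 libraries left out in turn, 17 to 21 were called. Without both libraries that stood apart 26 genes were called, the 23 included. The doses of the compounds differ.

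Genes of 8 of the 9 roles were among the 23, beginning with the signalling enzymes. Mknk2 had 36.8, 37.4 and 40.7 CPM with Dex + iBRD9 + LPS, against 23.9, 22.5 and 23.2 CPM with Dex + dBRD9 + LPS, a log2 difference of 0.72 (SE 0.08, adjusted p = 1.2e-06). Camk2g had 11.7, 13.2 and 13.6 CPM with Dex + iBRD9 + LPS, against 9.04, 8.14 and 7.83 CPM with Dex + dBRD9 + LPS, a log2 difference of 0.62 (SE 0.088, adjusted p = 2.7e-05). Both genes were higher in 3 of 3 libraries, with no overlap. Pik3r2 also rose (log2 0.55, SE 0.089, adjusted p = 0.00012), so that 3 of the 8 enzymes passed the test. Itgb3 had 2.24, 3.48 and 2.84 CPM with Dex + iBRD9 + LPS, against 1.60, 1.55 and 1.39 CPM with Dex + dBRD9 + LPS, a log2 difference of 0.90 (SE 0.19, adjusted p = 0.0019). Tnfrsf12a had 4.18, 4.05 and 3.49 CPM with Dex + iBRD9 + LPS, against 2.36, 2.54 and 2.58 CPM with Dex + dBRD9 + LPS, a log2 difference of 0.65 (SE 0.15, adjusted p = 0.0033). With Nckipsd and Sema4b, 4 of the 6 receptor, adhesion and cytoskeletal genes rose. Sema4b (log2 0.53, adjusted p = 0.04) passed edgeR's test with all libraries and without the first Dex + dBRD9 + LPS library. Without any other 1 of the 6 libraries it had adjusted p-values of 0.079 to 0.16. With all libraries limma-voom gave it an adjusted p of 0.052. Mtss1 did not pass, with 13.7, 14 and 16.2 CPM against 13.3, 12.8 and 13.9 CPM.

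Of the 8 regulators of transcription, 4 rose: Tef, Tle1, Atmin and Ski. Tle1 missed the threshold without the third Dex + iBRD9 + LPS library (adjusted p = 0.052). Tef had 6.18, 6.15 and 6.65 CPM with Dex + iBRD9 + LPS, against 3.20, 3.68 and 4.25 CPM with Dex + dBRD9 + LPS, a log2 difference of 0.78 (SE 0.14, adjusted p = 0.00033). Fam102a had 7.17, 6.81 and 8.42 CPM with Dex + iBRD9 + LPS, against 4.31, 3.89 and 4.16 CPM with Dex + dBRD9 + LPS, a log2 difference of 0.86 (SE 0.13, adjusted p = 3.6e-05). The libraries of both genes were apart, although every one of these values of Tef was below its LPS libraries, and for Fam102a the Dex + dBRD9 + LPS libraries were below LPS and the Dex + iBRD9 + LPS libraries overlapped it. Fnip2 had 89.3, 98.2 and 100.5 CPM with Dex + iBRD9 + LPS, against 61.4, 69.4 and 72.8 CPM with Dex + dBRD9 + LPS, a log2 difference of 0.50 (SE 0.083, adjusted p = 0.00017), and here the higher group was above the LPS libraries. Of the 5 DNA repair and cell division genes, Casp2 (0.56), the mismatch repair gene Msh6 (0.55) and Ercc6 (0.35) rose on the log2 scale, and Ercc6 missed the threshold without any of 4 of the libraries (the first or second of Dex + dBRD9 + LPS, the second or the third of Dex + iBRD9 + LPS; adjusted p 0.055 to 0.11). Ccp110, a centriolar protein, was the 1 of 6 centrosome and cilium genes that passed (log2 0.90, SE 0.24, adjusted p = 0.014), and it did not pass without the first or the second Dex + dBRD9 + LPS library (adjusted p 0.069 and 0.064). Of the 10 small GTPase genes Agfg2 (0.36), Rasa3 (0.36) and Elmo2 (0.27) rose. Agfg2 missed the threshold without any of 3 libraries and Rasa3 and Ski without any of 4, with adjusted p-values of 0.052 to 0.17. Arl4c, at 0.697, 1.02 and 1.49 CPM against 0.572, 0.573 and 0.764 CPM, did not pass. None of the 3 trafficking genes passed in edgeR's test. Summed neutrophil markers were 4.93 to 6.81 CPM with Dex + iBRD9 + LPS, against 12.9 to 14.9 CPM with Dex + dBRD9 + LPS. Summed macrophage markers were 16860 to 18532 CPM against 19156 to 22226 CPM, and summed stromal markers were 15.7 to 17.1 CPM against 14.8 to 17.0 CPM. The part of the neutrophil and macrophage markers was not tested.

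**Figure D3:**
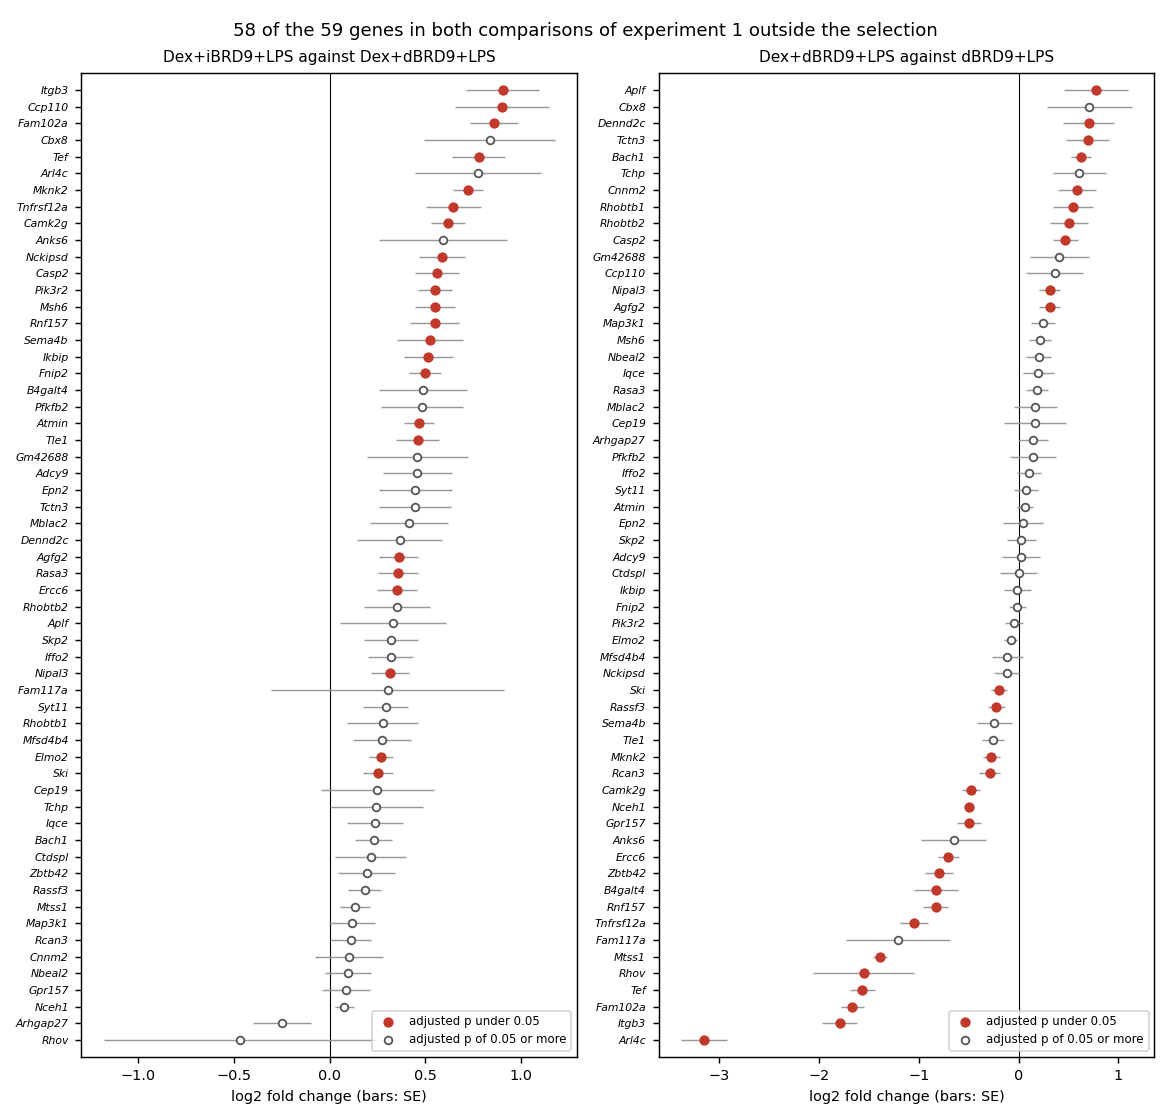
Log2 fold changes with standard errors of 58 of the 59 genes in both tested comparisons of experiment 1, Dex + iBRD9 + LPS against Dex + dBRD9 + LPS and Dex + dBRD9 + LPS against dBRD9 + LPS; filled points have an adjusted p under 0.05. In the first comparison the filled points are all above 0 (23 genes), and in the second they lie on both sides (10 above and 18 below).

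The other tested comparison of experiment 1 added Dex to the degrader, and the shares called in each direction lay near those of all genes. With Dex + dBRD9 + LPS 11 of the 59 were higher and 18 lower than with dBRD9 + LPS, or 18.6% and 30.5% of them, against 27.6% and 27.7% of all genes tested. The median log2 fold change was 0.02, against 0.0090 over all genes tested. Among the 137 genes that passed the iBRD9 and the Dex limits, 115 were higher and 0 lower in the same comparison. Without the first Dex + dBRD9 + LPS library 8 were higher and 17 lower, with Cnnm2, Rhobtb1, Rhobtb2, Agfg2 and Nipal3 no longer called higher. Without the third dBRD9 + LPS library 6 were higher. Scaling by totals alone gave 16 higher and 14 lower; that scaling moved the median of all genes by 0.11 on the log2 scale. Summed neutrophil markers were 12.9 to 14.9 CPM with Dex + dBRD9 + LPS, against 19.4 to 22.1 CPM with dBRD9 + LPS, stromal markers 14.8 to 17.0 CPM against 10.9 to 12.2 CPM, and macrophage markers 19156 to 22226 CPM against 11311 to 11644 CPM. The part of these markers was not tested.

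Arl4c, Fam102a, Itgb3, Tef and Rhov had the largest falls. Arl4c had 0.572, 0.573 and 0.764 CPM with Dex + dBRD9 + LPS, against 6.11, 4.99 and 5.81 CPM with dBRD9 + LPS, a log2 difference of -3.15 (SE 0.23, adjusted p = 5.4e-11). Itgb3 had 1.60, 1.55 and 1.39 CPM with Dex + dBRD9 + LPS, against 4.65, 5.36 and 5.85 CPM with dBRD9 + LPS, a log2 difference of -1.79 (SE 0.17, adjusted p = 5e-09). Mtss1 had 13.3, 12.8 and 13.9 CPM with Dex + dBRD9 + LPS, against 33.7, 35.9 and 35.3 CPM with dBRD9 + LPS, a log2 difference of -1.39 (SE 0.074, adjusted p = 1.6e-13). In all 3 the groups were far apart. Fam102a (log2 -1.67), Tef (-1.57), Rhov (-1.55) and Tnfrsf12a (-1.05) also fell by more than 1 on the log2 scale, although Rhov missed the threshold without the third dBRD9 + LPS or the second Dex + dBRD9 + LPS library (adjusted p 0.068 for both). Nceh1 fell less, with 79.9, 76.5 and 74.0 CPM with Dex + dBRD9 + LPS, against 106, 108 and 111 CPM with dBRD9 + LPS (log2 -0.49, SE 0.051, adjusted p = 1.8e-08). By role, 4 of the 6 receptor, adhesion and cytoskeletal genes fell and 0 rose, and of the 8 enzymes 3 fell, Mknk2, Camk2g and Rcan3, and 0 rose. Mknk2 (log2 -0.27, adjusted p = 0.0067) and Rcan3 (-0.29, adjusted p = 0.022) missed the threshold with scaling by totals alone (adjusted p 0.11 and 0.14), and Rcan3 also without the third dBRD9 + LPS or the third Dex + dBRD9 + LPS library (adjusted p 0.14 and 0.066).

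The genes that rose included 4 of the small GTPase group, Dennd2c (log2 0.70), Rhobtb1 (0.55), Rhobtb2 (0.50) and Agfg2 (0.31). Each of these 4 calls was lost on leaving out 1 or more of the 6 libraries in turn, with adjusted p-values of 0.056 to 0.13. Bach1 had 56.1, 64.4 and 62.7 CPM with Dex + dBRD9 + LPS, against 37.6, 39.3 and 41.6 CPM with dBRD9 + LPS, a log2 difference of 0.63 (SE 0.10, adjusted p = 1.2e-05). For Bach1 the groups did not overlap in 3 against 3 libraries.

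Experiment 2 asked how the same genes stood when IFNγ, an activator of macrophages made by T and NK cells, was given with LPS, and with the degrader only, since no group there had iBRD9. None of its libraries were used by the rule. With IFNγ + LPS 52 of the 59 genes were lower than with vehicle and 4 were higher, where 35.5% and 32.6% of all genes tested were (adjusted p under 0.05 over 13313 genes). The median log2 fold change was -2.15, against -0.11 over all genes tested. Among the 137 genes that passed with Dex, 130 were lower, so the fall is shared with other genes that LPS lowered in experiment 1. Leaving out each of the 4 libraries in turn gave 50 to 52 lower and 4 to 5 higher. Scaling by totals alone gave 54 lower and 2 higher, and moved the median of all genes by -0.65 on the log2 scale.

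Mknk2 had 13.6 and 11.1 CPM with IFNγ + LPS, against 124 and 134 CPM with vehicle, a log2 difference of -3.38 (SE 0.15, adjusted p = 8.4e-12). Tef had 3.78 and 4.02 CPM with IFNγ + LPS, against 44.8 and 47.8 CPM with vehicle, a log2 difference of -3.57 (SE 0.16, adjusted p = 1e-11). Rasa3 had 12.7 and 11.9 CPM with IFNγ + LPS, against 102 and 129 CPM with vehicle, a log2 difference of -3.23 (SE 0.16, adjusted p = 2.7e-11). In each the libraries were far apart. Anks6, a ciliary protein, had no reads in either IFNγ + LPS library and 3.80 and 4.07 CPM with vehicle, so that it was at least 39.1-fold lower with IFNγ + LPS when the floor is set at 3 counts over both libraries of the group. All 8 enzymes, all 6 centrosome and cilium genes, all 6 genes of lipid, nutrient, ion and glycan handling and all 3 trafficking genes fell. Cbx8 (log2 -4.77), Rhov (-4.54), Mblac2 (-4.09) and Nbeal2, a protein of granule formation (-3.57), also fell, the first 3 of them by more than Mknk2, Tef and Rasa3.

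The 4 genes that were higher were Tnfrsf12a, Ski, Bach1 and Elmo2. Tnfrsf12a had 22.9 and 23.8 CPM with IFNγ + LPS, against 4.59 and 5.62 CPM with vehicle, a log2 difference of 2.19 (SE 0.15, adjusted p = 2.7e-09). Ski had 245 and 260.5 CPM with IFNγ + LPS, against 63.3 and 89.0 CPM with vehicle, a log2 difference of 1.73 (SE 0.14, adjusted p = 2.6e-08). Bach1 had 161 and 194 CPM with IFNγ + LPS, against 78.2 and 110.4 CPM with vehicle, a log2 difference of 0.91 (SE 0.15, adjusted p = 5.9e-05), which was 0.26 and not called when libraries were scaled by totals alone. All 3 had been below vehicle in every LPS library of experiment 1 and were above it in every IFNγ + LPS library here. Elmo2, a partner of DOCK exchange factors for Rac, had 69.0 and 73.9 CPM against 45.6 and 56.3 CPM (log2 0.49, SE 0.12, adjusted p = 0.0022), and its sign turned to -0.16 when libraries were scaled by totals alone. Ercc6 (log2 -0.08), Tle1 (0.32) and Zbtb42 (0.29) did not pass. The experiments differ in more than IFNγ, since their libraries were made and counted apart, and the difference between them was not tested.

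**Figure D4:**
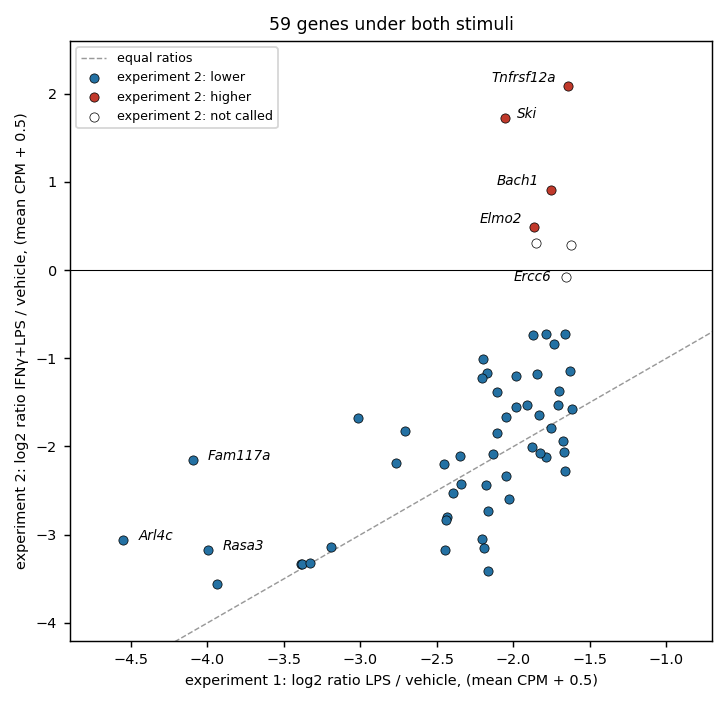
Log2 ratio of IFNγ + LPS over vehicle in experiment 2 (vertical) against the log2 ratio of LPS over vehicle in experiment 1 (horizontal), 1 point for each of the 59 genes, from group means plus 0.5 CPM. The rule keeps all points left of 0; 53 genes lie below 0 on the vertical axis, and Tnfrsf12a and Ski lie highest.

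Dex before IFNγ + LPS raised some of the genes. With Dex + IFNγ + LPS 10 of 59 (16.9%) were higher and 6 (10.2%) lower than with IFNγ + LPS, where 9.70% and 9.67% of all genes tested were. The median log2 fold change was 0.18, against 0.0031 over all genes tested. Other genes that LPS lowered in experiment 1 rose more often. Of the 137 genes that passed with Dex, 51 were higher and 2 lower (median 0.55). The rule had set these 137 apart from the 59 by their ratio with Dex in experiment 1. Of the 360 tested genes that did not reach the iBRD9 limit, 108 were higher and 24 lower (median 0.45). Scaling by totals alone gave 13 of the 59 higher and 6 lower. Without the first Dex + IFNγ + LPS library 5 were higher, and without the first or the second IFNγ + LPS library 5 and 4 were. Agfg2 had 9.20 and 10.1 CPM with Dex + IFNγ + LPS, against 2.07 and 1.79 CPM with IFNγ + LPS, a log2 difference of 2.31 (SE 0.22, adjusted p = 1.1e-06). Tef had 8.93 and 9.07 CPM with Dex + IFNγ + LPS, against 3.78 and 4.02 CPM with IFNγ + LPS, a log2 difference of 1.21 (SE 0.18, adjusted p = 0.00011). Fnip2 had 140.0 and 122 CPM with Dex + IFNγ + LPS, against 61.6 and 64.4 CPM with IFNγ + LPS, a log2 difference of 1.06 (SE 0.14, adjusted p = 3.3e-05). These 3 genes held their calls without any of the 4 libraries. Beside LPS alone, in experiment 1, Dex had raised none of the 3 past the limit of 1.2, as the rule required. For Fnip2 that rests on the first Dex + LPS library, which stood apart. Its levels there were 57.2, 75.4 and 76.4 CPM with Dex + LPS, against 62.8, 64.2 and 60.8 CPM with LPS. Tctn3, Nckipsd, Arhgap27, Nipal3, Pik3r2 and Anks6 rose too, but apart from Tctn3 each of these calls was lost without some of the 4 libraries, with adjusted p-values of 0.06 to 0.26. Anks6 rests on 12 reads against 0, a rise of at least 4.03-fold.

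Arl4c fell to 2.69 and 2.50 CPM with Dex + IFNγ + LPS, against 8.29 and 10.3 CPM with IFNγ + LPS, a log2 difference of -1.83 (SE 0.20, adjusted p = 5.5e-06). Tnfrsf12a fell to 9.80 and 10.4 CPM with Dex + IFNγ + LPS, against 22.9 and 23.8 CPM with IFNγ + LPS, a log2 difference of -1.2 (SE 0.15, adjusted p = 1.9e-05). Ski fell to 133 and 124 CPM with Dex + IFNγ + LPS, against 245 and 260.5 CPM with IFNγ + LPS, a log2 difference of -0.97 (SE 0.14, adjusted p = 0.00011). In each the groups were apart. Zbtb42, Iffo2 and Tle1 also fell; the calls of Iffo2 and Tle1 were lost without the first IFNγ + LPS library (adjusted p 0.062 and 0.14), and that of Iffo2 also without the second Dex + IFNγ + LPS or the second IFNγ + LPS library, that of Tle1 also without the first Dex + IFNγ + LPS library. Summed neutrophil markers were 12.4 to 17.9 CPM with Dex + IFNγ + LPS, against 35.9 to 38.3 CPM with IFNγ + LPS, and summed stromal markers were 39.4 to 47.0 CPM against 62.1 to 69.2 CPM. In the same order, macrophage markers were 11250 to 11798 CPM against 12823 to 13432 CPM. Dendritic cell markers were 5.01 to 6.04 CPM against 7.60 to 7.74 CPM. The part of these markers was not tested.

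The degrader alone gave 0 calls among the 59 genes in experiment 2 by edgeR's test, where 0.699% of all genes tested were higher and 0.961% lower than with IFNγ + LPS. At an unadjusted p under 0.05, 10 were higher and 2 lower. Counted in either direction, these 12 of 59 stood beside 1485 of all 13313 genes tested. The same count was 26 of the 137 genes that passed with Dex, and 80 of the 360 tested genes that did not reach the iBRD9 limit. DESeq2 called 2 of the 59 higher, Mtss1 among them, and limma-voom called 0. Mtss1 had 62.1 and 46.8 CPM with dBRD9 + IFNγ + LPS, against 38.4 and 36.5 CPM with IFNγ + LPS (log2 0.54, SE 0.16, adjusted p = 0.13 by edgeR). Its groups did not overlap in 2 against 2 libraries. The log2 fold change was positive in 38 of 59 genes, with a median of 0.17, against -0.0033 over all genes tested.

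With Dex present as well, Mknk2 was the 1 gene of the 59 that passed when the degrader was added, where 0.225% of all genes tested were higher and 1.02% lower. It had 23.8 and 25.9 CPM with Dex + dBRD9 + IFNγ + LPS, against 17.6 and 14 CPM with Dex + IFNγ + LPS, a log2 difference of 0.65 (SE 0.15, adjusted p = 0.042). Its libraries did not overlap, but the call was lost with scaling by totals, with limma-voom, with the replicate number as a block, and on leaving out any of the 4 libraries. In experiment 1 Mknk2 had 23.9, 22.5 and 23.2 CPM with Dex + dBRD9 + LPS, against 16.5, 14.6 and 14.9 CPM with Dex + LPS, which is described and not tested because the rule used the Dex + LPS libraries; in that comparison 22 genes had all libraries higher and 0 all lower, where 12% and 12.6% of all genes tested did. Without the first Dex + LPS library the counts were 26 and 2, against 23.4% and 21.2% of all genes tested. Without the first Dex + dBRD9 + LPS library as well they were 29 and 4, against 30.5% and 26.4%. With all libraries, 48 of the 137 genes that passed with Dex as well were all higher and 2 all lower.

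Dex added to the degrader raised 11 genes (18.6%) and lowered 8 (13.6%) in experiment 2, where 12.9% and 14.4% of all genes tested were higher and lower. The median was 0.21 on the log2 scale, against 0.037 over all genes tested. Other genes that LPS lowered in experiment 1 rose more often. Of the 137 genes that passed with Dex, which the rule had set apart from the 59 by that ratio, 69 were higher and 4 lower (median 0.70). Of the 360 tested genes that did not reach the iBRD9 limit, 101 were higher and 39 lower (median 0.42). DESeq2 called 6 of the 59 higher. Scaling by totals alone gave 14 higher and 8 lower, and moved the median of all genes by 0.12. Without the first or the second dBRD9 + IFNγ + LPS library 4 and 7 were higher, and without either Dex + dBRD9 + IFNγ + LPS library 5 were; 4 were lower without the first dBRD9 + IFNγ + LPS or the second Dex + dBRD9 + IFNγ + LPS library. Agfg2 had 10.7 and 11.6 CPM with Dex + dBRD9 + IFNγ + LPS, against 1.62 and 1.10 CPM with dBRD9 + IFNγ + LPS, a log2 difference of 3.02 (SE 0.23, adjusted p = 1.4e-07). Fnip2 had 158 and 142 CPM with Dex + dBRD9 + IFNγ + LPS, against 82.4 and 74.8 CPM with dBRD9 + IFNγ + LPS, a log2 difference of 0.93 (SE 0.14, adjusted p = 9.9e-05). Both were clear of overlap. Cbx8 rests on 6 reads against 0, a rise of at least 1.82-fold, and was not called without any 1 of the 4 libraries. Arl4c had 4.42 and 4.10 CPM with Dex + dBRD9 + IFNγ + LPS, against 12.8 and 10.2 CPM with dBRD9 + IFNγ + LPS, a log2 difference of -1.43 (SE 0.18, adjusted p = 2.5e-05). Tnfrsf12a (-1.25), Ski (-1.06), Zbtb42 (-0.74), Tle1 (-0.70), Mtss1 (-0.61), Map3k1 (-0.54) and Nceh1 (-0.50) also fell on the log2 scale; of these, Tle1, Mtss1 and Nceh1 missed the threshold without the first dBRD9 + IFNγ + LPS or the second Dex + dBRD9 + IFNγ + LPS library, and Map3k1 without any 1 of the 4. Summed neutrophil markers were 16.4 to 18.8 CPM with Dex + dBRD9 + IFNγ + LPS, against 18.9 to 21.2 CPM with dBRD9 + IFNγ + LPS, and summed stromal markers were 33.1 to 38.5 CPM against 50.1 to 50.3 CPM; their part was not tested. The interaction of Dex and dBRD9 called 0 of the 59 genes by edgeR, where 0.00751% of all genes tested were lower and 0% higher. At an unadjusted p under 0.05 it had 6 of the 59 genes, beside 1167 of all 13313 genes tested.

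This addition of Dex to the degrader was tested in both experiments, on separate libraries. The log2 fold change had the same sign in both experiments in 34 of the 59 genes. Neither shared signs nor shared calls were counted over all genes tested, so the 34 and the overlaps below have no background. Of the genes that fell, 6 were the same, among 18 in experiment 1 and 8 in experiment 2: Arl4c, Mtss1, Nceh1, Ski, Tnfrsf12a and Zbtb42. The call of Ski in experiment 1 (log2 -0.19) was lost with scaling by totals alone (adjusted p = 0.42), with TMM factors on filtered genes (0.067), with the replicate number as a block (0.05016) and without any of 4 libraries (0.056 to 0.27), and those of Mtss1 and Nceh1 in experiment 2 without either of 2 libraries. Of 11 that rose in each experiment, Agfg2 and Casp2 were the same, the call of Agfg2 being lost in experiment 1 without the first Dex + dBRD9 + LPS library and that of Casp2 in experiment 2 without any of 3 libraries. Fam102a, Mknk2, Rnf157 and Tef fell in experiment 1 and rose in experiment 2. In experiment 2 the calls of Fam102a and Rnf157 were lost without any 1 of the 4 libraries (adjusted p 0.055 to 0.19), that of Tef without the first dBRD9 + IFNγ + LPS library (adjusted p = 0.06), while Mknk2 kept its call without each of them. No gene rose in experiment 1 and fell in experiment 2.

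**Figure D5:**
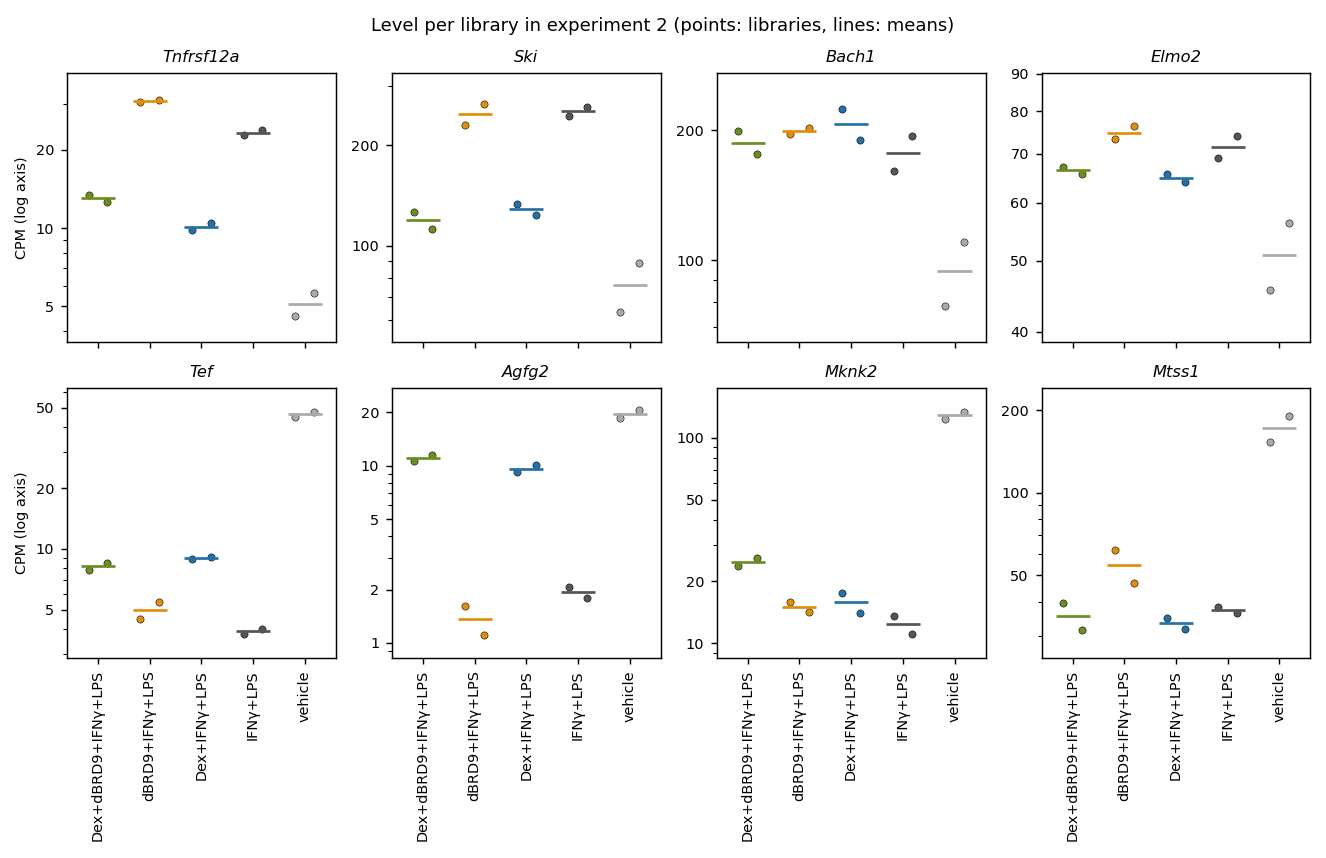
Levels of 8 of the genes in experiment 2 (log axis, CPM), with a point for each of the 2 libraries of a group and a line at the group mean. Tnfrsf12a, Ski, Bach1 and Elmo2 are higher with IFNγ + LPS than with vehicle (Elmo2 not, and Bach1 less, when scaled by totals alone), Tef, Agfg2, Mknk2 and Mtss1 are lower, and Agfg2 and Tef are higher in both groups with Dex than in the matching groups without it.

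Few of the pathways from which gene lists were drawn hold more than 1 of the 59 genes, so the lists are given as wider context. Of all genes tested, 6.69% were higher and 8.93% lower with Dex + iBRD9 + LPS than with Dex + dBRD9 + LPS, 32.6% and 35.5% with IFNγ + LPS than with vehicle, and 9.70% and 9.67% with Dex + IFNγ + LPS than with IFNγ + LPS. Of 14 MAP kinase interacting and stress kinase genes tested, Mknk2 and Map3k1 among them, 3 were higher and 3 lower with Dex + iBRD9 + LPS than with Dex + dBRD9 + LPS (median log2 fold change 0.10), and 4 were higher and 6 lower with IFNγ + LPS than with vehicle. Of 16 clock and PAR bZIP genes, Tef among them, 2 were higher and 2 lower with Dex + iBRD9 + LPS than with Dex + dBRD9 + LPS, and 7 were higher and 2 lower with Dex + IFNγ + LPS than with IFNγ + LPS. Of 17 genes of the MiT/TFE and folliculin axis, Fnip2 among them, 7 were higher and 3 lower with Dex + iBRD9 + LPS than with Dex + dBRD9 + LPS (median 0.14). Lists of FoxO-linked genes, macrophage identity genes, phosphoinositide and AKT pathway genes (which did not name Pik3r2), sorting nexins, lipid-handling genes and ncBAF subunits held 0 of the 59.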

How the data were processed

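RNA of mouse bone marrow-derived macrophages was sequenced in bulk in 31 libraries of 2 experiments. The authors deposited raw counts per Ensembl gene, with 1 column for each library, and every column entered. Per the submitters' processing notes fastp, STAR and DESeq2 were used with mm10; what each did, the versions, the counter, its annotation and its handling of strand: not given in the sources used here. Symbols, exons and positions came from GENCODE M21.

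TMM factors were computed on all genes (edgeR 4.0.16, R 4.3.3). Genes were tested after filterByExpr (minimum count 10, minimum total 15), 12662 in experiment 1 and 13313 in experiment 2, with all groups of an experiment in 1 fit and edgeR's quasi-likelihood test; a gene is called where its p, adjusted after Benjamini and Hochberg across the genes tested, is under 0.05. Comparisons with a group that the choice of genes used were described by levels, ratios of group means plus 0.5 CPM and non-overlap of libraries, without a test. Fits were tested on simulated counts. Depth was 14472828 to 29912533 counts per library, and no pair of replicates agreed within sampling noise (chi-square per degree of freedom of 2.13 or more). Floors and bounds use 3 counts over a group and cover counting error only.

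The genes, their limits and the gene lists were chosen with earlier results of these data known. Named genes are those with the most vehicle reads, the highest iBRD9 ratios, the largest called changes, list members, genes at a limit and the ends of the iBRD9 + LPS over vehicle ratio; others were named after their values were seen, to fill the groups by role. Of the 59 genes, 1 enters the counts and medians but is not reported here by name. Alternatives were library totals, DESeq2 1.42.0, limma-voom (limma 3.58.1), no filter, only the compared groups, the replicate number as a block, leaving out each library, and other limits; TMM factors on filtered genes, crossed replicate numbers and described counts without the libraries that stood apart were added after seeing the data. Figures and counts used Python 3.11.15, pandas 2.3.3 and matplotlib 3.10.9.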

Additional observations from a re-analysis of the deposited data

Results flagged for a closer look

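Several genes moved in opposite directions in the 2 experiments under a like contrast, with every library of one experiment on one side and every library of the other on the opposite side; the difference between the experiments was not tested, and stimulus, batch and depth of the experiments cannot be told apart. When Dex was added to the degrader, Mknk2 changed by 0.73 in experiment 2 and by -0.27 in experiment 1 on the log2 scale. The fall of Mknk2 was not called when libraries were scaled by totals alone. In the same contrast Tef changed by 0.72 and -1.57, Fam102a by 0.63 and -1.67, and Rnf157 by 0.68 and -0.83, again with experiment 2 given first.

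For the stimulus against vehicle, which was IFNγ + LPS in experiment 2 and LPS in experiment 1, Ski changed by 1.73 and -2.07, Bach1 by 0.91 and -1.77, Elmo2 by 0.49 and -1.88, and Tnfrsf12a by 2.19 and -1.77 on the log2 scale. The experiment 1 values helped to choose the genes and are descriptions. Scaled by totals alone, Elmo2 turned negative in experiment 2 and Bach1 was not called. When Dex was added to the stimulus, Tef changed by 1.21 in experiment 2 and by -1.63 in experiment 1. Anks6 had fitted values of 5.72 and -0.49 in that contrast, and the first of these rests on 12 reads against 0. In experiment 1 its highest Dex + LPS library had 0.633 CPM and its lowest LPS library 0.637 CPM.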

How the results depend on the processing

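The number of genes chosen was 119 with library totals alone, 62 when the vehicle limit was read with 0.5 CPM added, and 52 to 66 on leaving out 1 library. Of the counts of called genes, those for Dex + iBRD9 + LPS against Dex + dBRD9 + LPS stayed within 1.5 times of 23 under every alternative run, with 17 to 21 on leaving out 1 library. For Dex + dBRD9 + LPS against dBRD9 + LPS, leaving out 1 library gave 6 to 8 higher and 14 to 18 lower. In experiment 2 the degrader raised 2 genes by DESeq2, 3 without a filter and 2 with only the compared groups, against 0. Dex added to the degrader raised 6 by DESeq2, and leaving out 1 library gave 4 to 7 higher and 4 to 7 lower. Dex added to IFNγ + LPS gave 4 to 8 higher and 4 to 5 lower on leaving out 1 library. The single rise with the degrader beside Dex, of Mknk2, became 0 with library totals, 0 by limma-voom and 0 to 0 on leaving out 1 library. For IFNγ + LPS against vehicle 2 were higher with library totals, and Elmo2 turned to -0.16; leaving out 1 library gave 4 to 5 higher and 50 to 52 lower. With the replicate number as a block the rise of Mknk2 beside Dex was not called (0 genes), and no other count of calls moved by over 1.5 times. Same-numbered libraries of the compared groups did not deviate together in every pair of experiment 1 (correlations down to -0.017), and the correlation was -0.21 for Dex + IFNγ + LPS against IFNγ + LPS; crossing the numbers gave 11 higher and 7 lower there. Of 144 called gene results under 1754 settings, 1597 kept direction and call, 156 lost the call and 1 turned. The experiments had 3 and 2 libraries per group, so low-count genes such as Anks6 and Cbx8 are limited by depth, and the described ratios share their LPS or Dex + LPS libraries with the rule.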
